A study of Mus musculus with 48 samples.

Results

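The subject is the response to CpG A of mouse bone marrow cells grown with GM-CSF, which the labels call moDC (monocyte-derived dendritic cells). It comprised 4 RNA libraries, 1 left untreated and 1 each after 1, 4 and 6 h with 5 µM CpG A. They are 4 of the 32 libraries of a Toll-like receptor (TLR) stimulation experiment and of 48 samples in the series. The libraries were picked out by their labels. They and the gene lists below were chosen with earlier results of these data known. The marrow came from the long bones of female C57BL/6J mice aged 6 to 10 weeks. The sources used here do not say how many mice gave each culture. No library was replicated and no CpG A library was taken at 2 h. A pair of neighbours in the experiment served for comparison, both at the same 5 µM dose: moDC given CpG B, a second DNA oligonucleotide, and marrow cells grown with Flt3L (called pDC, plasmacytoid dendritic cells) given CpG A.

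CpG oligonucleotides are short DNAs that imitate microbial DNA and are sensed inside endosomes by TLR9. Class A oligonucleotides have a palindromic centre with a natural backbone and protected G-rich ends, and are known as strong inducers of type I interferon in plasmacytoid dendritic cells. Class B oligonucleotides have a protected backbone throughout and are known for inducing cytokines through NF-κB. Type I interferon, once released, acts through the receptor IFNAR and factors such as STAT2 and IRF9 on a large set of interferon-stimulated genes, so these genes usually follow an inducer with a delay.

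Libraries were made from the 3′ ends of polyadenylated RNA, and levels are given in counts-per-million units (CPM). The untreated library had 401755 counts, and those at 1, 4 and 6 h had 748152, 518061 and 630486, so that 1 count was worth 1.34 to 2.49 CPM. A gene with 0 counts may still have been present below 4.01 to 7.47 CPM, the worth of 3 counts, and that limit covers counting error only. Myeloid genes were high in all 4 libraries, with the lysozyme gene Lyz2 at 24916, 24518, 22077 and 19621 CPM and the integrin Itgax, which dendritic cells carry, at 729, 957, 984 and 956 CPM in the order untreated, 1, 4 and 6 h. All values below follow that order. The pDC gene Siglech was at 2.49, 0, 1.93 and 1.59 CPM and the T cell gene Cd3e at 0, 0, 0 and 1.59 CPM. Other pDC genes were present. The 18 pDC genes listed, Irf8 and Bst2 among them, summed to 714, 905, 942 and 1500 CPM, against 5895 CPM in untreated pDC. The 8 T cell genes listed summed to 32.4, 37.4, 42.5 and 66.6 CPM. Granulocyte genes were present, and the 16 neutrophil genes summed to 11982, 13261, 10221 and 11399 CPM. In bulk RNA, fewer cells of a type and less RNA per cell cannot be told apart.

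The untreated and the CpG A libraries each stood apart from the other moDC libraries in some genes. Among 8056 genes tested, the untreated library was alone highest of the 16 moDC libraries in 1160 and alone lowest in 463. All 3 CpG A libraries lay above the other 13 moDC libraries in 87 genes (1.08%) and below them in 12 (0.149%). Rpph1, the RNA of the tRNA-processing enzyme RNase P, was at 64.7, 348, 371 and 187 CPM, against 28.0 to 98.9 CPM in the 12 moDC libraries given other ligands. The histone gene Hist2h4 was at 0, 68.2, 125 and 55.5 CPM, against 0 to 8.32 CPM in those 12. The pDC libraries given CpG A had the same feature, with Rpph1 at 15.9, 243, 306 and 247 CPM and Hist2h4 at 0, 62.7, 96.9 and 82.5 CPM. These differences were present at 1 h. With 1 library per condition, ligand and library cannot be told apart in any comparison of CpG A with the untreated cells or with CpG B.

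Interferon-stimulated genes were near their untreated level at 1 h and higher at 4 and 6 h. Of 38 such genes (all passed the filter on low counts), 0 were at least 2-fold above the untreated library at 1 h, 18 at 4 h and 33 at 6 h, computed with 10 CPM added to each level. Over all tested genes the shares past the same fold were 1.4%, 2.77% and 4.58%. The median log2 ratio of the list was 0.07 at 1 h, 0.83 at 4 h and 2.29 at 6 h, beside 0.01, 0.00 and -0.03 over all tested genes. The order 6 h above 4 h above both the untreated and the 1 h library held for 30 of 38 list genes (78.9%) and for 881 of 8056 tested genes (10.9%). All 38 were higher at 6 h than at 4 h, as were 46.9% of tested genes.

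The chemokine Cxcl10, which attracts T cells, was at 12.4, 18.7, 168 and 668 CPM. The 6 h library was 53.7 times the untreated one (95% counting interval 22.8 to 166), while the ratio at 1 h was 1.5 (0.512 to 5.33). The level at 1 h could not be told from the untreated level by counting error. Rsad2, an antiviral enzyme that makes a chain-terminating nucleotide, was at 27.4, 13.4, 156 and 569 CPM, low in both the untreated and the 1 h library and high in the other two. Its ratio to untreated was 5.71 at 4 h (interval 3.03 to 11.9) and 20.8 at 6 h (11.5 to 42). Isg15, a ubiquitin-like modifier, was at 119, 104, 295 and 1166 CPM, and the RNA-binding antiviral gene Ifit3 at 12.4, 16, 52.1 and 482 CPM. For Ifit3 most of the difference came between 4 and 6 h, from 27 to 304 counts.

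Some of the factors that relay interferon signals were ordered in the same way. Irf7, a factor that amplifies interferon transcription, was at 22.4, 13.4, 124 and 365 CPM, with a log2 ratio to untreated of -0.47 at 1 h. Stat2, which carries the signal of the interferon receptor, was at 102, 96.2, 295 and 822 CPM, near its untreated level at 1 h and above it at 4 and 6 h. Socs1, an inhibitor of interferon signalling, was at 159, 195, 449.8 and 755 CPM. The receptor gene Ifnar1 was at 44.8, 42.8, 32.8 and 22.2 CPM, with no increase at any time. Of 16 genes of interferon signalling, 0 were past the 2-fold line at 1 h, 5 at 4 h and 6 at 6 h. Over all tested genes the shares were 1.4%, 2.77% and 4.58%. The median log2 ratio of these 16 was 0.22, 0.38 and 0.46. The order 6 h above 4 h above both the untreated and the 1 h library held for 7 of 16 (43.8%), beside 10.9% of tested genes.

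Irf1 was above the untreated level already at 1 h. This interferon regulatory factor, which also responds to NF-κB, was at 34.8, 72.2, 208 and 309 CPM, and the ratio at 1 h was 2.07 (interval 1.13 to 4.04). The 4 libraries were in order of time and none of the 3 CpG A levels reached down to the untreated one. Its late log2 fold change was 2.92 ± 0.60 (SE). That was among the lowest adjusted p in the comparison (0.194, edgeR quasi-likelihood test with Benjamini-Hochberg adjustment) but did not pass the threshold of 0.05. The DNA sensor gene Ifi204, at 32.4, 66.8, 147 and 509 CPM, had a like 1 h ratio of 2.07 (1.11 to 4.14).

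**Figure D1:**
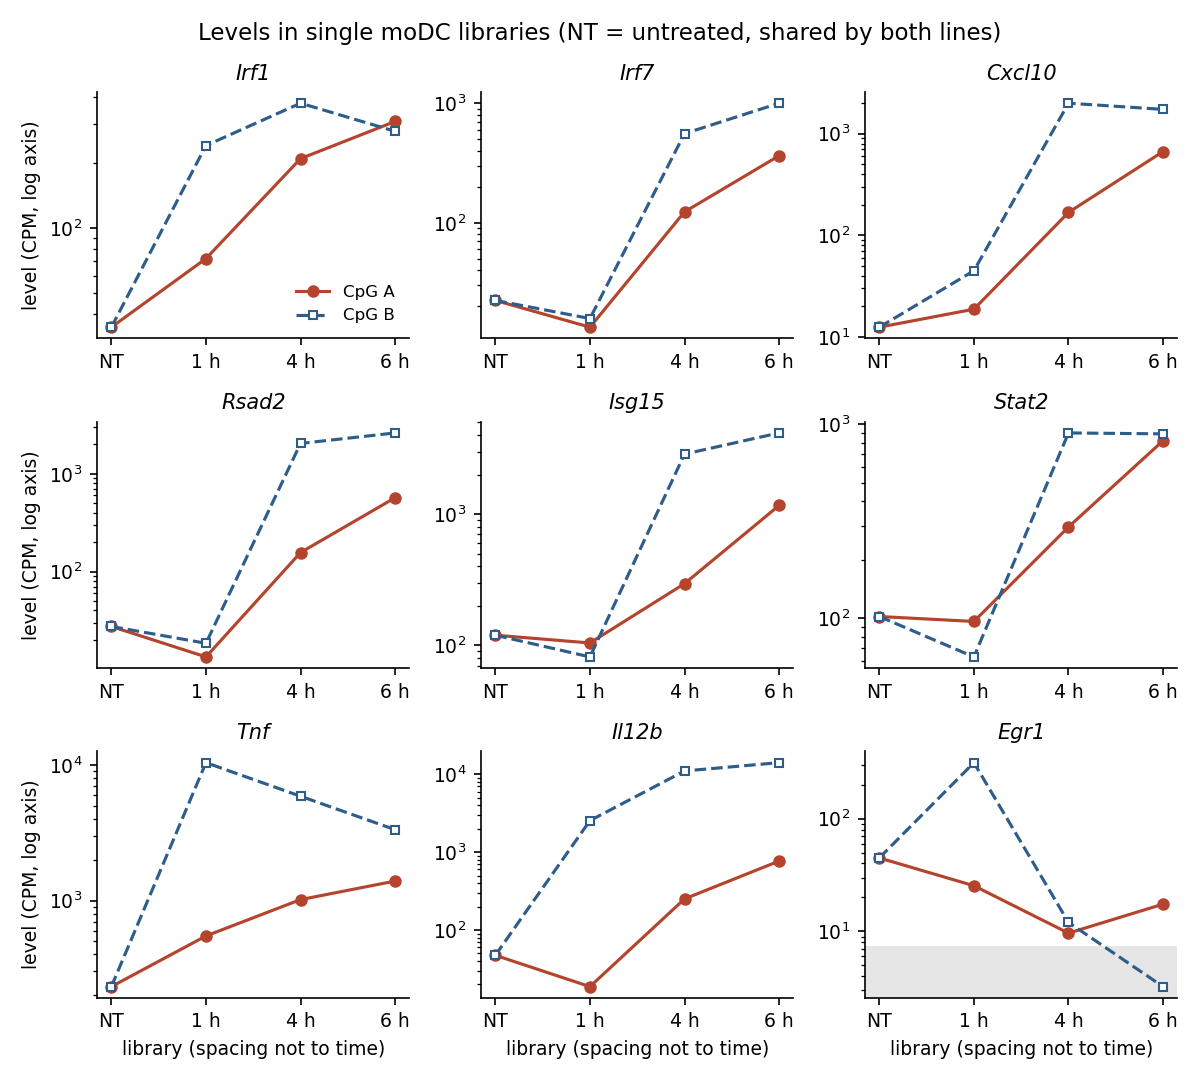
Levels of 9 genes in single moDC libraries in CPM on log axes, untreated (NT) and after CpG A (filled circles) or CpG B (open squares). The untreated library is shared by both lines, time points are evenly spaced, and the grey band in the Egr1 panel marks levels of 3 counts or fewer. With CpG A, Cxcl10 and Rsad2 left their untreated level after 1 h and stayed below CpG B at 4 and 6 h, while Irf1 reached the CpG B level at 6 h.

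The guanylate-binding proteins and immunity-related GTPases, which attack vacuoles of intracellular microbes and are induced by interferons, kept to this timing. Of 15 genes that passed the filter (of 17), 0 were past 2-fold at 1 h, 5 at 4 h and 9 at 6 h, with medians of -0.08, 0.39 and 1.68 on the log2 scale. Irgm1 was at 27.4, 33.4, 129 and 281 CPM, Gbp2 at 27.4, 44.1, 79.1 and 217 CPM and Irgm2 at 4.98, 6.68, 30.9 and 119 CPM. Irgm2 rests on few counts, and its 6 h ratio of 23.9 had an interval of 6.39 to 201. Going the other way, Ciita, which switches on MHC class II genes, was at 114, 88.2, 67.6 and 55.5 CPM. Of 14 MHC class I genes 1 was past 2-fold at 1 h, 0 at 4 h and 5 at 6 h. The 1 at 1 h was H2-Q7, a class I heavy chain gene, at 7.47, 26.7, 13.5 and 38.1 CPM, which has near-identical relatives. The 6 h genes included the peptide transporter Tap1 at 149, 158, 201 and 484 CPM. None of 12 MHC class II genes passed the 2-fold line at any time. Over all tested genes the shares past 2-fold were 1.4%, 2.77% and 4.58% higher and 0.782%, 1.53% and 2.71% lower at 1, 4 and 6 h. A count of 0 of 12 is near these shares.

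Promoters of 3 of these genes are printed because each holds the core of an interferon-stimulated response element, a sequence that IRF factors recognise. Sequences are from RefSeq (GRCm38.p6), cover the 250 bases before the start site and read 5′ to 3′ on the gene's strand, with capitals marking the match. The letters searched, on both strands, were GAAA, any 2 bases and GAAA again. Cxcl10 lies on the minus strand at chr5:92348890-92349139, Rsad2 on the minus strand at chr12:26456453-26456702 and Irgm2 on the plus strand at chr11:58214727-58214976. In Cxcl10 the first capitals (213 to 204 bases upstream) are this match. The second (103 to 94 bases upstream) match the letters of an NF-κB site, searched as GGG, any 2 bases, TT, any base and CC. In Rsad2 the match is on the opposite strand.
Cxcl10: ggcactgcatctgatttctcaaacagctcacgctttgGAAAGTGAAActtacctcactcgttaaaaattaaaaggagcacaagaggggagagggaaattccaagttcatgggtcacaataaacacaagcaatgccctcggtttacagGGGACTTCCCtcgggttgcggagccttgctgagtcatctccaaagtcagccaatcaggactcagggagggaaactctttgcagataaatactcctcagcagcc
Rsad2: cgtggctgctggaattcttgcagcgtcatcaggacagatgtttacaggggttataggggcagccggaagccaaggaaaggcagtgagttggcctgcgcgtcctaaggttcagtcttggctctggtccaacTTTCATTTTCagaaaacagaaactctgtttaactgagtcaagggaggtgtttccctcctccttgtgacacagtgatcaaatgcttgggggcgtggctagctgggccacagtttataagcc
Irgm2: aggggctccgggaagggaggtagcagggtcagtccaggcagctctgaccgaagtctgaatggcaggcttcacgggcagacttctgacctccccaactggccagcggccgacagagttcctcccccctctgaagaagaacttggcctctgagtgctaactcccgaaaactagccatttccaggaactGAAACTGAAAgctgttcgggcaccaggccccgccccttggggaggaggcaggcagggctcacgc

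In a window from 250 bases before to 50 after the start, the response element core was found in 16 of 33 promoters of the interferon-stimulated list (48.5%, with 27 of 38 genes matched to the table). It was found in 7 of 11 promoters of the guanylate-binding and GTPase list (63.6%) and in 2 of 25 of the inflammatory list (8%). Of all 32851 promoters 3.44% held it. The NF-κB letters were found in 3 of 33, 3 of 11 and 9 of 25 promoters of these lists, against 4.79% of all. A match describes letters only, and binding was not measured.

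The interferon genes themselves were hardly counted. Ifnb1, which encodes interferon beta, had 0 counts in the untreated, 1 h and 4 h libraries and 8 at 6 h (12.7 CPM). The 15 interferon genes listed (type I, type III and Ifng, the type II gene) together had 4, 2, 1 and 10 counts. An interferon transcript at a level below 4.01 to 7.47 CPM was not detectable at this depth. With CpG B, Ifnb1 was at 42 CPM at 4 h and 42.1 CPM at 6 h. The receptor Tlr9 was at 12.4, 17.4, 13.5 and 17.4 CPM, low in every library, against 76.2 to 261 CPM in the 16 pDC libraries. Its trafficking partner Unc93b1 was at 361, 499.9, 546 and 595 CPM and the adaptor Myd88 at 229, 155, 174 and 244 CPM.

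Inflammatory genes had a smaller median ratio than interferon-stimulated genes at 6 h, and the difference between the lists was not tested. Of 30 that passed the filter (of 32), 1 was past 2-fold at 1 h, 11 at 4 h and 15 at 6 h, with median log2 ratios of 0.18, 0.77 and 1.05. Over all tested genes 1.4%, 2.77% and 4.58% were past the same line. The 1 gene past 2-fold at 1 h was Tnf, the cytokine TNF, at 231, 548, 1017 and 1394 CPM. Its levels were in order of time, and the 1 h ratio of 2.37 had an interval of 1.89 to 3. The other moDC libraries at 1 h lay far above it, since CpG B, LPS and PAM gave 5063 to 10445 CPM at that time. The chemokine Ccl4 was at 214, 330.1, 811 and 1519 CPM, with a 1 h ratio of 1.54 (1.2 to 2).

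Il12b, the shared subunit of IL-12 and IL-23, was at 47.3, 18.7, 251 and 769 CPM. Its 1 h level was below the untreated one (ratio 0.396, interval 0.184 to 0.832) before it stood above it at 4 and 6 h. The cytokine Il1b was at 281, 291, 761 and 977 CPM, close to its untreated level at 1 h, and most of its difference was present at 4 h. Il6 was at 2.49, 2.67, 11.6 and 39.7 CPM, at 1 and 2 counts in the untreated and the 1 h library. Nos2, the inducible nitric oxide synthase, was at 0, 1.34, 7.72 and 1.59 CPM, near the floor at all times, and the anti-inflammatory cytokine Il10 at 0, 1.34, 0 and 1.59 CPM.

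Feedback genes of NF-κB were past 2-fold for 1 of 22 at 1 h, 3 at 4 h and 7 at 6 h. Over all tested genes the shares were 1.4%, 2.77% and 4.58%. The median log2 ratio of the list was 0.18, 0.48 and 0.64. The gene at 1 h was Tnfaip3, whose enzyme A20 restrains NF-κB, at 14.9, 49.5, 61.8 and 85.6 CPM. Its 1 h ratio was 3.31 (1.39 to 9.6), and the 3 CpG A levels were all above the untreated one. The caspase inhibitor Cflar was at 27.4, 40.1, 127 and 208 CPM, so that its difference was later. The first of 2 Tnfaip3 start sites in the RefSeq table (minus strand, chr10:19015411-19015660, GRCm38.p6) is printed for its match to the NF-κB letters on the opposite strand, 12 to 3 bases upstream, in capitals. The second start site held no match in its 250 bases.
Tnfaip3: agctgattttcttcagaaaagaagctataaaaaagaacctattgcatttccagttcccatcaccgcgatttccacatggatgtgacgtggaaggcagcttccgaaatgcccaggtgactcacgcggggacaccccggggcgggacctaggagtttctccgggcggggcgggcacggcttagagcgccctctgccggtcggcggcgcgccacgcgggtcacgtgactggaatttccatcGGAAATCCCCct

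Immediate early genes, which many stimuli switch on within the first hour and off again, showed no such peak with CpG A. Of 23 that passed the filter (of 26), 0 were past 2-fold higher at 1 h and 0 lower (0.782% of tested genes were lower), with a median log2 ratio of 0.04. Egr1, a growth-signal factor, was at 44.8, 25.4, 9.65 and 17.4 CPM, highest in the untreated library, and Ier2 at 99.6, 62.8, 56 and 42.8 CPM. The factor Klf4 was at 109.5, 64.2, 50.2 and 9.52 CPM, lower at each time than the one before, with a 6 h ratio of 0.0869 (0.0303 to 0.205). At 4 h 0 of the 23 were past 2-fold higher and 1 lower. At 6 h 1 was higher, the factor Atf3 (log2 ratio 1.18), and 2 were lower. Over all tested genes 1.4%, 2.77% and 4.58% were higher at 1, 4 and 6 h, and 1.53% and 2.71% lower at 4 and 6 h. A peak before 1 h, or between 1 and 4 h, was not sampled.

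Of 17 maturation genes of dendritic cells tested, 0 were past 2-fold higher at 1 h, 2 at 4 h and 5 at 6 h, beside 1.4%, 2.77% and 4.58% of tested genes. Their median log2 ratio was 0.04, 0.28 and 0.68. The costimulatory receptor Cd40 was at 37.3, 52.1, 104 and 199.8 CPM and the inhibitory ligand Cd274 (PD-L1) at 137, 221, 291 and 559.9 CPM, with the 6 h library highest in both. Cd86 was at 74.7, 64.2, 63.7 and 125 CPM, and the chemokine Ccl22, abundant before treatment, at 5640.2, 5961, 6837 and 10474 CPM. Of 23 cell cycle genes, 4 were past 2-fold lower at 6 h and 0 at 4 h, beside 2.71% and 1.53% of tested genes. The replication gene Mcm3 was at 162, 146, 83 and 79.3 CPM and Rrm2, a subunit of the enzyme that makes DNA precursors, at 119, 104, 94.6 and 49.2 CPM. In 11 of 23 the order was 6 h below 4 h below both earlier libraries, as in 13.4% of tested genes.

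**Figure D2:**
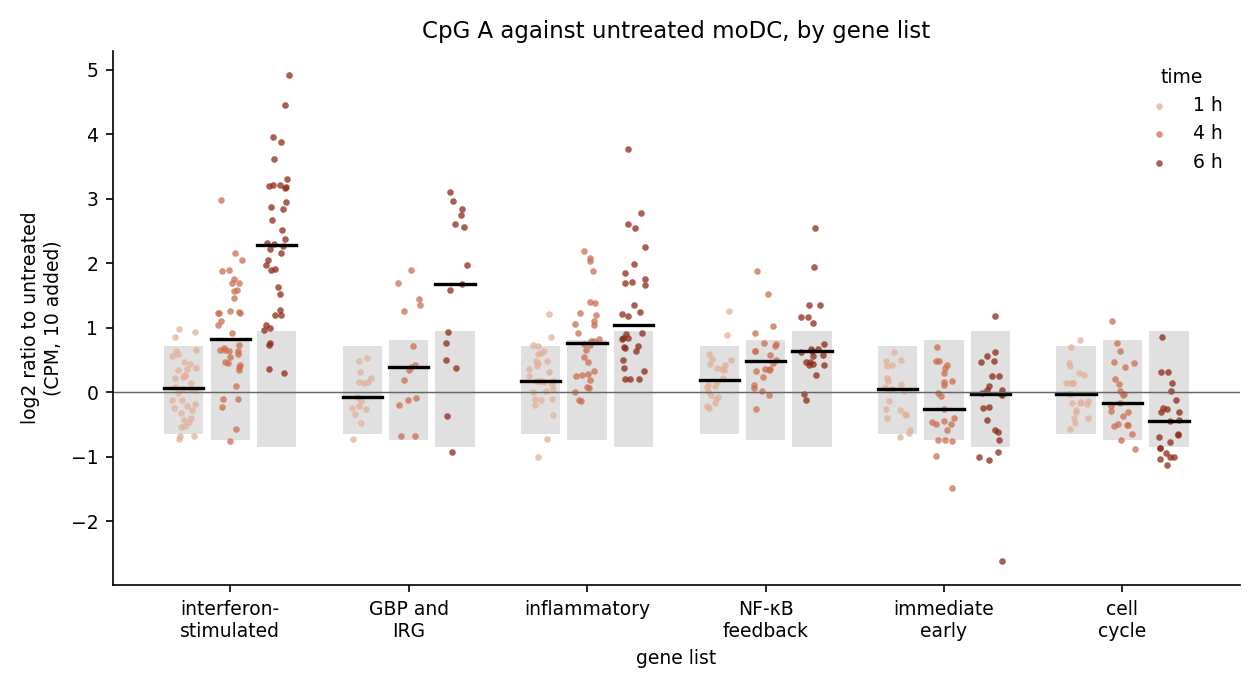
Log2 ratio of each CpG A library to the untreated library (CPM, 10 added) for the genes of 6 lists at 1, 4 and 6 h, with 1 point per gene and a bar at the median. Grey boxes span the 5th to 95th percentile of all 8056 tested genes. The interferon-stimulated genes have medians of 0.07, 0.83 and 2.29, and the immediate early genes have medians of 0.04, -0.25 and -0.02.

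In the shared model no gene passed the test against the untreated library. The 4 and 6 h libraries together gave 0 of 8056 calls (edgeR quasi-likelihood test, two-sided, where a call needed at least 2-fold and an adjusted p under 0.05), with 577 genes at an unadjusted p below 0.05. DESeq2 called 1 gene, Irf1, and edgeR with no filter on low counts called 82 (74 higher, 21 of them interferon-stimulated). Of the interferon-stimulated list 24 of 38 had an unadjusted p below 0.05 and a higher level, beside 4.11% of tested genes. Of the inflammatory list 7 of 30 did, and of the immediate early list 0 of 23. The 1 h library against the untreated one gave 0 calls, with 247 genes at an unadjusted p below 0.05, while DESeq2 gave 0 and edgeR with no filter 2. Both single libraries are assumed to vary like the others. In this model a difference between the pooled 4 and 6 h libraries counts as spread, so genes that changed between those times have a larger SE.

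Among the late log2 fold changes (± SE), Cxcl10 had 5.09 ± 1.44 (adjusted p = 0.382, edgeR) and Irf7 3.48 ± 1.07 (0.47). Ifi204 had 3.38 ± 0.90 (0.352) and the pro-apoptotic gene Xaf1 3.29 ± 0.96 (0.382). Tnf had 2.42 ± 0.72 (0.431). Genes outside immunity ranked as high, and several of them were already apart at 1 h. Psip1, a chromatin-binding coactivator, had -2.63 ± 0.53 (adjusted p = 0.194) at 89.6, 29.4, 13.5 and 14.3 CPM. Nus1, of dolichol synthesis, was at 14.9, 61.5, 65.6 and 61.9 CPM, against 30.1 to 81.1 CPM in the 12 moDC libraries given other ligands. There the untreated library is the one that stands off. Upf3b, of nonsense-mediated decay, was at 114, 44.1, 40.5 and 14.3 CPM, against 16.8 to 94.9 CPM in those 12. Its untreated level lay above that range and its 6 h level below it. Tlr4, the receptor for LPS, was at 107, 46.8, 30.9 and 49.2 CPM, and its untreated level lay above all 12 moDC libraries given other ligands (10.0 to 68.5 CPM).

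A comparison within CpG A, 4 and 6 h against 1 h, leaves the untreated library out. It gave 0 calls, with 314 genes at an unadjusted p below 0.05 (208 higher, 2.58%). DESeq2 gave 0 and edgeR with no filter on low counts 61 (59 higher, 21 of them interferon-stimulated). Of the interferon-stimulated genes 25 of 38 were among the higher ones, and of the guanylate-binding and GTPase genes 8 of 15. Of the inflammatory genes 3 of 30 were. Cmpk2, an interferon-induced nucleotide kinase encoded next to Rsad2, had 5.27 ± 1.40 on the log2 scale at 4.98, 1.34, 34.7 and 85.6 CPM (adjusted p = 0.9999, or 0.000894 unadjusted, edgeR), with 1 count at 1 h. Irf7 had 4.22 ± 1.06 and Irf1 1.89 ± 0.50.

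By the median of the interferon-stimulated list, the step from 4 to 6 h was the larger one under CpG A. For some of its genes, Cxcl10 and Rsad2 among them, the log2 step from 1 to 4 h was the larger. From 1 to 4 h 17 of 38 were at least 2-fold higher (1.09% of tested genes), with a median log2 ratio of 0.80. From 4 to 6 h 30 of 38 were (1.89% of tested genes), with a median of 1.36. For 34 of 38 the counting interval of the 6 h to 4 h ratio lay above 1 and for 0 below it, as for 6.08% and 6.5% of tested genes. Under CpG B the order of the steps was the reverse, with medians of 2.81 from 1 to 4 h and 0.33 from 4 to 6 h. There 37 of 38 were at least 2-fold higher after the first step (5.91% of tested genes) and 4 after the second (3.55%). The steps of the 2 ligands share no library, and their difference was not tested.

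Inflammatory genes under CpG A had medians of 0.44 and 0.46 in these steps. Of 30, 6 and 3 were at least 2-fold higher after them, beside 1.09% and 1.89% of tested genes. Under CpG B the medians were 0.74 and -0.21. Immediate early genes had -0.14 from 1 to 4 h under CpG A and -1.32 under CpG B, where 13 of 23 were at least 2-fold lower at 4 h than at 1 h (8.06% of tested genes), beside 1 of 23 under CpG A (0.807%).

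**Figure D3:**
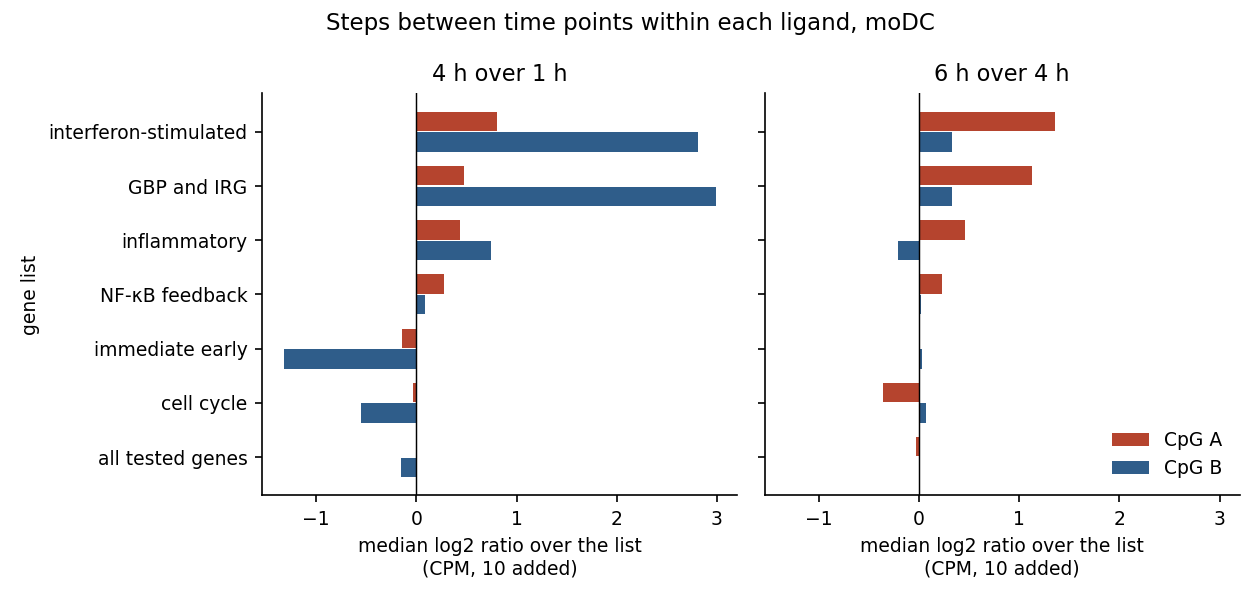
Median log2 ratio over each gene list between neighbouring time points (CPM, 10 added), from 1 to 4 h (left) and from 4 to 6 h (right), for CpG A and CpG B in moDC. Each bar compares single libraries. For interferon-stimulated genes the CpG A bars are 0.80 and 1.36 and the CpG B bars 2.81 and 0.33.

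CpG A was then compared with CpG B, the 1 pair of related compounds tested here, at the same dose and times. At 1 h 21 of 30 inflammatory genes and 14 of 23 immediate early genes were at least 2-fold lower with CpG A than with CpG B, and 0 were higher, beside 2.22% lower and 2.31% higher of tested genes. Tnf was at 548 CPM after CpG A and 10445 CPM after CpG B, Il12b at 18.7 and 2543 CPM and Egr1 at 25.4 and 313 CPM. Interferon-stimulated genes did not separate the ligands at that time, with 0 of 38 lower, 2 higher and a median log2 ratio of 0.09. At 4 h 35 of 38 of them were at least 2-fold lower with CpG A (5.14% of tested genes) and 0 higher (10.1%), with a median of -1.91. At 6 h 14 were lower (3.29%) and 0 higher (8.74%), with a median of -0.88. The inflammatory list had medians of -1.92, -2.20 and -1.31 at 1, 4 and 6 h. Over all tested genes the medians were 0.10, 0.23 and 0.20, on column totals, so the ratios of the lists carry that offset.

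Over the 4 and 6 h libraries, 2 against 2, edgeR called 165 of 8056 genes (2.05%), 35 higher with CpG A (0.434%) and 130 lower (1.61%). By list, 14 of 30 inflammatory genes, 6 of 38 interferon-stimulated genes and 3 of 15 guanylate-binding and GTPase genes were called lower and 0 of each higher. Il12b was at 251 and 769 CPM in the CpG A libraries against 11051 and 14134 CPM in the CpG B libraries, at 4 and 6 h. Its log2 fold change (CpG A over CpG B) was -4.90 ± 0.99 (adjusted p = 0.00771, edgeR). Nos2 was at 7.72 and 1.59 CPM against 75.1 and 217 CPM (-5.24 ± 0.63, adjusted p = 5.35e-05). Lower calls also included Il1a (-2.52 ± 0.42), the monocyte chemokine Ccl7 (-2.56 ± 0.40), the prostaglandin enzyme Ptgs2 (-4.58 ± 0.90) and Socs3, an inhibitor of cytokine signalling (-1.75 ± 0.35).

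Among the antiviral genes Cmpk2 (-3.09 ± 0.58, adjusted p = 0.00547) and Gbp2 (-2.31 ± 0.55) were called lower. Cxcl10 had -2.43 ± 0.76 (adjusted p = 0.0907, edgeR) and was not called, but it was called with time as a block (1, 4 and 6 h, adjusted p = 0.00522), with the 16 moDC libraries alone (0.0124) and with no filter on low counts (5.88e-15). The adjusted p ran up to 0.557 over its alternatives. For Irf1 (-0.62, 95% interval -1.38 to 0.14) and Stat2 (-0.95, -2.07 to 0.16) the test did not pass, and the intervals leave room for levels up to 2.61 and 4.19 times lower with CpG A. The adjusted p of Stat2 was 0.385 in the main fit and 0.371 with time as a block over 1, 4 and 6 h (edgeR). The block over 4 and 6 h, a fit on 4 libraries that called 592 genes in all, called it lower (5.33e-06). The cause of that gap was not tested. Irf8, a factor of dendritic cell development that interferon also induces, was at 162, 194, 187 and 232 CPM with CpG A and at 447 and 583 CPM with CpG B at 4 and 6 h. It was called lower (-1.58 ± 0.27, adjusted p = 0.00319), and with CpG A its late log2 fold change from the untreated library was 0.41 ± 0.35.

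Of the 35 genes called higher with CpG A, 31 were closer to the untreated level in the CpG A libraries than in the CpG B libraries, and of the 130 called lower 129 were. The share over all tested genes was not computed. The genes were called for a difference between these same libraries, so no conclusion is drawn from these counts. The distances to the untreated level used column totals, whereas the calls used TMM scaling. The TMM factors were 0.836 and 0.837 for CpG B and 1.04 and 1.00 for CpG A at 4 and 6 h. Trp53, the tumour suppressor p53, was at 75.3 and 88.8 CPM after CpG A, 21 and 16.2 CPM after CpG B and 87.1 CPM untreated (1.84 ± 0.37). The mitotic checkpoint gene Bub1b was at 61.8 and 57.1 against 15 and 3.24 CPM, and 82.1 CPM untreated. In the CpG B libraries 3 counts were worth 9.01 CPM at 4 h and 9.72 CPM at 6 h. The CpG B levels of Trp53 and Bub1b therefore rest on few counts. Cebpa, a myeloid transcription factor, was an exception at 37.3, 78.9, 176 and 63.4 CPM, highest at 4 h, against 27 and 22.7 CPM with CpG B at 4 and 6 h (1.94 ± 0.48, adjusted p = 0.0343). Its relative Cebpb was at 321, 362, 456 and 401 CPM and was not called. Rpph1 (2.37 ± 0.46, adjusted p = 0.0063) and Hist2h4 (5.34 ± 1.05, 0.00771) were also called higher. In 4 of the 35 higher calls, these 2 included, all 3 CpG A libraries lay above the other 13 moDC libraries, and in 1 of the 130 lower calls they lay below. The calls became far fewer without the CpG A 4 h or either late CpG B library, but not without the CpG A 6 h library. With column totals as the scale 152 were higher and 116 lower.

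**Figure D4:**
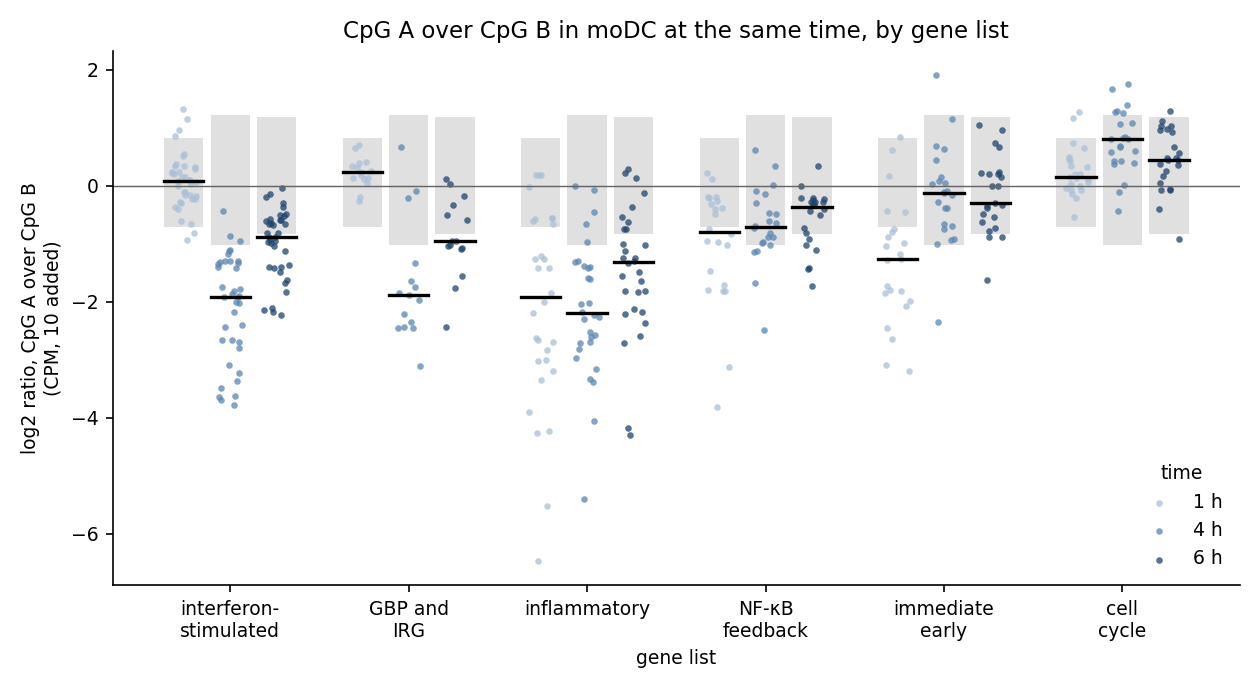
Log2 ratio of the CpG A to the CpG B library of moDC at the same time (CPM, 10 added) for the genes of 6 lists, with 1 point per gene, a bar at the median and grey boxes for the 5th to 95th percentile of all tested genes. Inflammatory genes lie below 0 at all 3 times (medians -1.92, -2.20 and -1.31), interferon-stimulated genes at 4 and 6 h (-1.91 and -0.88) but not at 1 h.

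The Flt3L-grown pDC cultures received the same CpG A dose at the same times, and the change from untreated to late was compared between the cell types. The median difference of log2 fold changes (moDC minus pDC) was -1.64 over the 38 interferon-stimulated genes and -0.01 over all tested genes. None of the 38 was called (with no filter on low counts 4 were called lower), and 7 had an unadjusted p below 0.05 and a smaller change in moDC, beside 3.72% of tested genes. In pDC Cxcl10 was at 15.9, 7.84, 2038 and 2798 CPM, so that its 4 h level was near its 6 h level, and Irf7 at 87.4, 66.7, 847 and 2409 CPM. Over all genes 1 of 8056 was called, Cebpa (0.0124%), at a difference of 5.05 ± 0.87 (adjusted p = 0.0367, edgeR). It was at 125, 78.4, 12.5 and 6.6 CPM in pDC, opposite to its course in moDC. Its 4 and 6 h levels in pDC rest on few counts, since 3 counts were worth 9.38 and 9.90 CPM there. That call was lost without the moDC 4 h library (adjusted p = 0.102) and without the pDC 6 h library (0.373). DESeq2 called 11 other genes, all with a lower difference, and edgeR with no filter called 56, of which 3 were higher, Cebpa included, and 53 lower.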

How the data were processed

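RNA 3′ ends were sequenced, and the deposited table of the stimulation experiment holds raw counts per gene symbol for 32 libraries (total 255062 to 748152, median 397712), with no normalization by the authors. The submitters' processing notes name TopHat and the build mm9. No source used here gives the counting tool or its use of strand. Near-identical genes, overlapping genes and antisense genes may therefore share reads. A row without a gene name (0.536% to 0.889% of the 4 libraries) was left out. Of 21637 symbols, 19171 matched the RefSeq gene table and 2258 one of its synonyms.

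CPM were computed from column totals. Tests used edgeR 4.0.16 (R 4.3.3, quasi-likelihood, TMM scaling, two-sided) on 8056 genes that reached 20 CPM in 4 or more libraries. All 32 libraries were grouped by cell type, ligand and stage (early 1 and 2 h, late 4 and 6 h), which left 14 residual degrees of freedom. The p-values measure the spread between single libraries, since no replicate cultures are labelled. That spread includes any change between the times pooled in a stage, 1 with 2 h and 4 with 6 h. A call needed at least 2-fold and an adjusted p under 0.05. Single-library ratios had 10 CPM added, and exact binomial 95% intervals of ratios of counts cover counting error only. Intervals of fold changes used the SE and 25.2 degrees of freedom. Alternatives used DESeq2 1.42.0, other scalings and filters, left-out libraries and time as a block. Figures used matplotlib 3.10.9.

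The members and the gene lists were chosen with earlier results of these data known. Genes named are those with the lowest p (15 per direction against untreated, 10 in the other tests), the 12 largest 1 h ratios per direction, and list members with the largest ratios or against their list. Ifnar1, Cd86, Ccl22, Il10, Itgax, Lyz2, Siglech and Cd3e were added for their role or as markers.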

Additional observations from a re-analysis of the deposited data

Results flagged for a closer look

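Cebpa was noted because its late response to CpG A differed between the cell types. The log2 fold change from untreated was higher in moDC than in pDC by 5.05 ± 0.87 (SE; adjusted p = 0.0367, edgeR quasi-likelihood test of the difference, over 8056 genes). The 4 and 6 h levels were 176 and 63.4 CPM against 37.3 CPM untreated in moDC, above it in both. In pDC they were 12.5 and 6.6 CPM against 125 CPM, below it in both. These late pDC levels rest on few counts, since 3 counts were worth 9.38 CPM at 4 h and 9.90 CPM at 6 h. Each untreated group was 1 library. The call was lost without the moDC 4 h library (adjusted p = 0.102), without the pDC 6 h library (0.373) and with a shared shift between 6 and 4 h (0.0834), and DESeq2 gave no adjusted p for it.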

How the results depend on the processing

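No named gene changed sign under any alternative run, and 488 of 564 values of named genes kept their side of the threshold. With no filter on low counts the calls came to 82 against untreated (74 higher, 8 lower), 2 at 1 h, 61 for late against 1 h, 401 for CpG A against CpG B and 56 for moDC against pDC (3 higher, 53 lower). Of the 38 interferon-stimulated genes 21 were among the 74. DESeq2 called 1 gene against untreated (Irf1) and 11 for moDC against pDC (all lower, Cebpa not among them), and a baseline of the untreated and 1 h libraries together called 1 (Irf1, adjusted p = 0.0496). For CpG A against CpG B, scaling by column totals gave 268, with 152 higher and 116 lower where TMM gave 35 and 130 (median of all genes moved by 0.28), the 16 moDC libraries alone 310, and time as a replicate block 592 at 4 and 6 h and 217 at 1, 4 and 6 h. For moDC against pDC, column totals (median of all genes moved by 0.25) and size factors each gave 2, and a shared shift between 6 and 4 h, added after the data were seen, 0. Leaving out 1 library gave 4 to 171 calls for CpG A against CpG B (the least without CpG A at 4 h) and 0 to 8 for moDC against pDC, and 0 throughout for late against untreated and against 1 h. The causes were not tested.

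Counts of single-library ratios past 2-fold depended on the pseudocount, higher then lower at 1, 4 and 6 h. They were 113, 63, 223, 123, 369 and 218 with 10 CPM added, 444, 246, 550, 350, 702 and 514 with 2 CPM, and 3, 0, 35, 5, 101 and 18 with 50 CPM. Among genes reaching 100 CPM they were 9, 8, 70, 25, 142 and 60. The interferon-stimulated list kept its order of time in each, with 0 to 5 genes at 1 h, 8 to 22 at 4 h and 24 to 34 at 6 h. Depth limited genes below about 20 CPM, where 1 library holds only a few counts.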

Other observations

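Genes of myeloid identity differed little between the 4 libraries. Of 24 monocyte and macrophage genes that passed the filter on low counts, 0 were at least 2-fold above the untreated library at 1 h, 2 at 4 h and 0 at 6 h (1.4%, 2.77% and 4.58% of tested genes), and 0 were lower by as much at any of these times. The 2 at 4 h were Cebpa and Cebpd, a transcription factor of the same family, which was at 44.8, 50.8, 125 and 96.8 CPM. Clec4e, a receptor for mycobacterial glycolipid, was at 67.2, 62.8, 129 and 103 CPM, so that both Cebpd and Clec4e were highest at 4 h. Apoe, a lipid carrier that macrophages make, was at 177, 154, 131 and 85.6 CPM, lower at each time than at the one before. The 16 neutrophil genes summed to 10221 to 13261 CPM over the 4 libraries, against 8373 to 15472 CPM in the 12 moDC libraries given other ligands. The 14 genes of eosinophils, basophils and mast cells summed to 1942 to 2499 CPM, against 1491 to 3195 CPM. Of 10 stress and heat shock genes 0 were past 2-fold at 1, 4 or 6 h, which is near the low shares of tested genes.

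Several genes with the largest ratios at 1 h belong to none of the lists. Nab2, a partner that restrains EGR factors, was at 54.8, 122, 168 and 238 CPM, in order of time. The chemokine Cx3cl1 was at 49.8, 109.6, 119.7 and 88.8 CPM and the endosomal sorting gene Tsg101 at 49.8, 104, 94.6 and 73 CPM, with the untreated library lowest in both. Mgll, which breaks down monoacylglycerols, was at 393, 196, 214 and 201 CPM, with the untreated library alone high. The other moDC libraries at 1 h had 203 to 234 CPM of Mgll, also below the untreated level. With 1 library per condition these differences had no replicate check.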
